A study of Mus musculus with 6 samples.

Results

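Respiratory complex I, NADH:ubiquinone oxidoreductase, is the first enzyme of the mitochondrial electron transport chain. It takes electrons from NADH at a flavin, passes them along iron-sulphur clusters to ubiquinone and pumps protons across the inner mitochondrial membrane. It is assembled from subunits encoded in the nucleus and subunits encoded in mitochondrial DNA, and is built from 4 blocks: an N module that oxidises NADH, a Q module that reduces ubiquinone, and a proximal and a distal part of the membrane arm. The nuclear set holds 7 core subunits, which carry the flavin, the clusters and the ubiquinone site, and supernumerary subunits around them that are needed for assembly and stability. The genes described here are those named Ndufa, Ndufb, Ndufc, Ndufs or Ndufv with a number, and Ndufab1. Of 52 gene names that start with Nduf, 8 assembly factors, 3 names that end in -ps, and Ndufa4 and Ndufa4l2, whose products are not counted here as complex I subunits, were set aside. That left 39 of the 25491 genes of the table. 36 are protein coding in GENCODE, and 3 (Ndufa11b, Ndufb4c and Ndufs6b) are processed pseudogenes that the naming rule also takes in.

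RNA was measured in mesenchymal progenitor cells sorted from mouse bone marrow, stromal cells from which bone, cartilage and marrow fat arise. The sort kept cells without CD45, TER119, CD31, CD44 and SCA1 and with CD51. All mice were C57BL/6J, 14 weeks old, and had received 7 Gy of sublethal radiation 6 weeks before. There were 3 wild type libraries and 3 Lama4-/- libraries, the latter without the laminin alpha 4 chain of basement membranes; the labels name no cell-specific driver of the deletion. Both groups were irradiated, so the data hold no unirradiated reference. The design text counts 3 mice per genotype but ties no library to a mouse; p-values therefore speak of the spread between libraries, which may be technical. Levels are normalised read counts in CPM, the count scaled to the TMM-adjusted library total, listed as replicates 1, 2 and 3 of each genotype.

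The libraries held between 6263830 and 15663957 counts, and wild type replicate 2 was the smallest. Complex I transcripts took between 0.130% and 0.270% of a library's counts, and single coding subunits had between 33 and 2522 counts in a library. In the wild type group the Poisson counting error was 3.401% to 13.1% of a subunit's level (median 5.32%), beside a median SD between libraries of 30.5%. It was at least as large as that subunit's own SD for 1 of 36 coding subunits, Ndufs3, and close to it for Ndufb4, the subunit with the fewest counts. The targeted gene Lama4 was at 45.4, 40.4 and 33.8 CPM in the wild type libraries and 0.00, 0.00 and 0.00 CPM in the Lama4-/- libraries, as the labels say. Osteoblast markers, led by Col1a1, summed to 38966 to 50887 CPM and chondrocyte markers, led by Col2a1, to 84666 to 126232 CPM in the wild type libraries. In the Lama4-/- libraries these sums were 25885 to 81766 and 55842 to 107557 CPM. Cd44 was present at 139, 70.6 and 152 CPM in the wild type libraries and 53.2, 55.6 and 81.98 CPM in the Lama4-/- libraries, although the sort was negative for the protein. In bulk RNA, fewer cells of a type and less RNA per cell cannot be told apart.

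Nearly all nuclear subunits had a somewhat higher mean transcript level in Lama4-/- cells than in wild type cells, and none passed the test. Of 38 members with enough counts to be tested, 37 had a log2 fold change above 0, against 48.0% of all tested genes. Of the 38, 36 lay in the 3 deciles of shortest principal transcripts, where 76.2%, 73.2% and 67.8% of all genes were above 0. The members' median log2 fold change was 0.47 (from -0.16 for Ndufs1 to 0.84 for Ndufs8), beside -0.04 over all tested genes. In edgeR's quasi-likelihood test with Benjamini-Hochberg adjustment over 14465 genes, 0 members passed an adjusted p of 0.05, where 0.00691% of all genes did. The smallest adjusted p was 0.270. At an unadjusted p under 0.05, 5 of 38 members were higher, beside 4.45% of all tested genes, and 0 were lower, beside 8.34%. By DESeq2, 0 of 38 members with an adjusted p passed an adjusted p of 0.05 (1.08% of all genes were past it and higher) and 7 of 39 were higher at an unadjusted p under 0.05 (3.73% of all genes). In the authors' deposited table, too, 0 of 37 members are past an adjusted p of 0.05 (1.88% of all genes are past it and higher), and 7 of 39 are higher below the unadjusted threshold (3.53%). In 14 of 38 members every Lama4-/- library was above every wild type library, a pattern found in 10.3% of all tested genes. In the other 24 the groups overlapped.

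**Figure D1:**
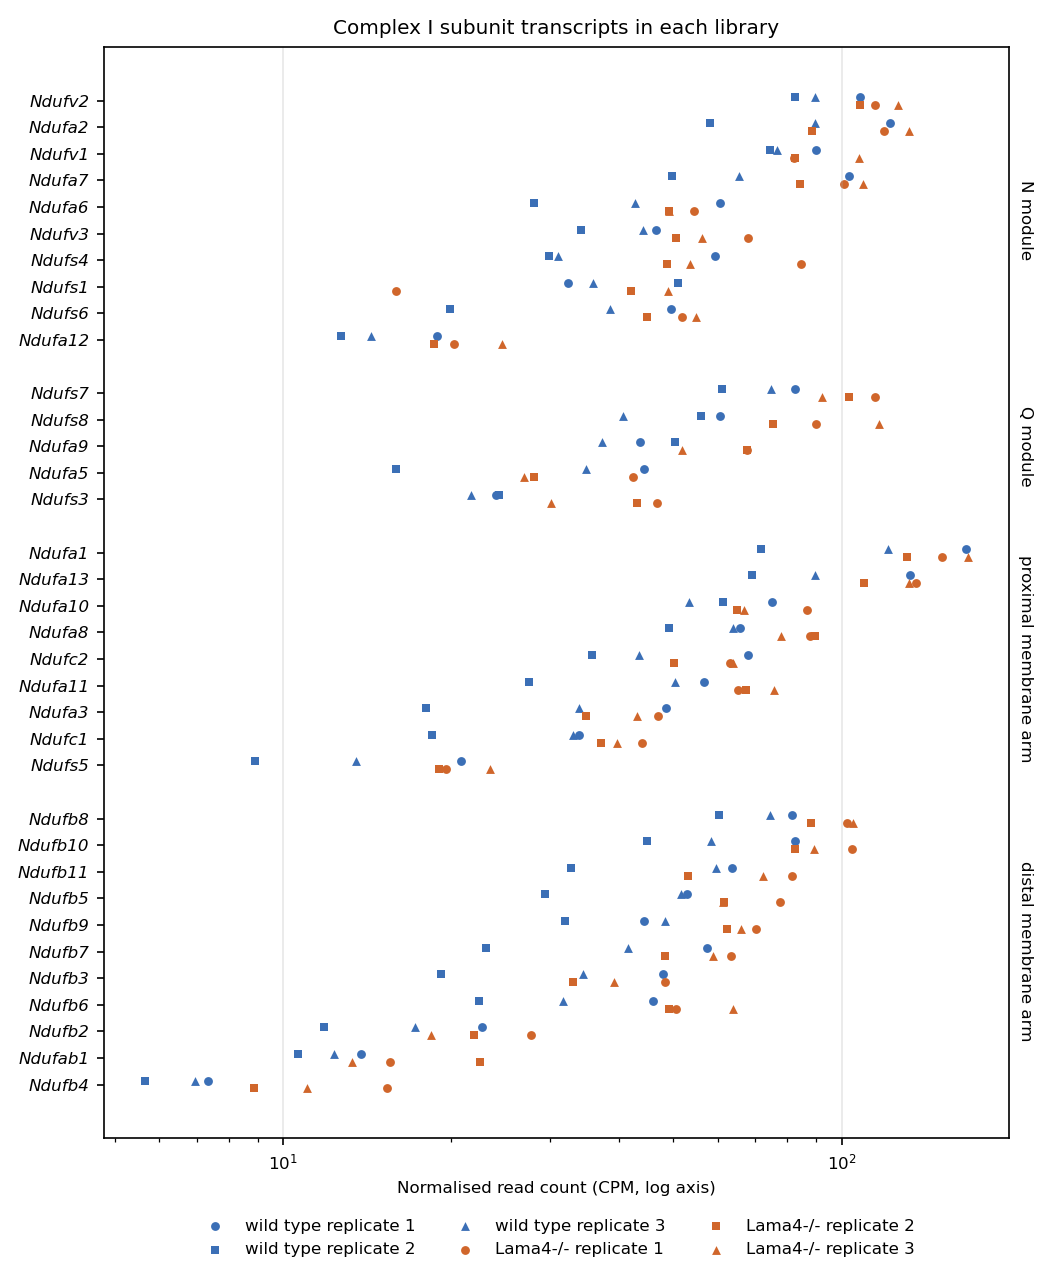
Normalised read count of 35 coding complex I subunits (CPM, log axis) in the 3 wild type (blue) and 3 Lama4-/- (orange) libraries, with 1 symbol shape per replicate number, grouped by the block of the complex. Wild type replicate 2 (blue squares) is the lowest library for 30 of the 35 subunits.

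The summed level of all 39 members shows how unevenly the wild type libraries contributed. It was 2253, 1399 and 1754 CPM in the wild type libraries and 2536, 2235 and 2527 CPM in the Lama4-/- libraries. The groups overlapped, because wild type replicate 1 lay above Lama4-/- replicate 2. The ratio of the group means was 1.35, and 1.21 without wild type replicate 2. That library was lowest in 30 of the 36 coding subunits; among the exceptions were Ndufa9, Ndufa10, Ndufs1, Ndufs3 and Ndufs8. Among the wild type libraries, 33 of 36 coding subunits were higher in replicate 1 than in replicate 2, with a median log2 difference of 0.88, more than the median difference between the genotypes. Short transcripts in general were also low in replicate 2. In the shortest decile of all tested genes the median log2 deviation from the mean of all libraries was -0.44 there and 0.09 in replicate 1. For the coding subunits it was -0.68 and 0.11, or -0.36 and 0.14 with the trend on the longest transcript's length removed. Against wild type replicate 1, 25, 17 and 26 of 36 subunits were higher in Lama4-/- replicates 1, 2 and 3. Against wild type replicate 2 it was 35 in each, and against replicate 3 it was 35, 32 and 35. In these pairs between 45.4% and 50.8% of all tested genes were higher in the Lama4-/- library. Without wild type replicate 2, 34 of 38 members had a log2 fold change above 0 (48.7% of all tested genes), the median fell to 0.27, and 4 members had an unadjusted p under 0.05 and were higher, beside 4.60% of all genes.

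Levels per length, in CPM per kilobase of the principal transcript, ranked the subunits in nearly the same order in both genotypes (Spearman's rho 0.963 across 36 coding subunits, a description, since the subunits share libraries). Ndufa1, a small membrane subunit needed for assembly, led at 287 CPM per kilobase in wild type and 358 in Lama4-/- cells. Ndufa2 and Ndufa7, supernumerary subunits of the N module, followed at 157 and 138, and the membrane subunit Ndufb8 at 106 in wild type. The lowest were Ndufb4 at 6.84, the acyl carrier protein Ndufab1 at 8.64, the N module subunit Ndufa12 at 13.8 and Ndufs1, the largest core subunit, at 15.4 CPM per kilobase. Levels per kilobase were lower for longer transcripts, with a rho of -0.59 across the 36, given as a description. Length is the divisor of these levels, so a negative rho can arise even where CPM does not depend on length.

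Of the 4 blocks, the Q module, which hands electrons to ubiquinone, had the largest ratio of summed levels. Its 5 transcripts reported here summed to 255, 208 and 209 CPM in the wild type libraries and 361, 317 and 318 CPM in the Lama4-/- libraries. These sums did not overlap, and their ratio was 1.48, or 1.43 without wild type replicate 2. All 5 log2 fold changes were above 0, with a median of 0.52.

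Ndufs8 (ENSMUSG00000059734, chromosome 19, 3908863 to 3912774, minus strand, GRCm38), a core subunit that carries a pair of iron-sulphur clusters, had the smallest p of all members. It was at 60.5, 56.00 and 40.7 CPM in the wild type libraries and 90.03, 75.3 and 117 CPM in the Lama4-/- libraries. Every Lama4-/- library was above every wild type library, with a log2 fold change of 0.84 (SE 0.26, adjusted p = 0.270) in edgeR. In the authors' deposited table its log2 fold change, shrunken by a prior, is 0.80 with an adjusted p of 0.0525 there. The value was 0.89 without wild type replicate 2. Since it had the smallest p, the 250 bases before its start site are shown, from RefSeq (GRCm38.p6), 5′ to 3′ on the minus strand, with 3 copies of the letters CCAAT, the CCAAT box, in capitals.
Ndufs8, chr19:3912775-3913024, minus strand: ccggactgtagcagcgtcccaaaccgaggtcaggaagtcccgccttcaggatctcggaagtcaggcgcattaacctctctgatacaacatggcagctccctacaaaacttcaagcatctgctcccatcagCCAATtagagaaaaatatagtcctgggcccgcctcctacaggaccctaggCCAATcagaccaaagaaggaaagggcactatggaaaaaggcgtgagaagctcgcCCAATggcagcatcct

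Ndufs3 (ENSMUSG00000005510, chromosome 2, 90894634 to 90904827, minus strand), a core subunit that holds no cluster of its own, was at 24.1, 24.3 and 21.7 CPM in the wild type libraries and 46.8, 43.02 and 30.2 CPM in the Lama4-/- libraries. The wild type libraries were within 3 CPM of each other and all Lama4-/- libraries lay above them, with a log2 fold change of 0.78 (SE 0.27, adjusted p = 0.318). Its exons share 88 bases with Kbtbd4 on the other strand, and the kit does not mark strand. Of the stretches of read length in its principal transcript, 28.2% also occur in other genes, most often the processed pseudogene Gm12251.

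Ndufs7 (ENSMUSG00000020153, chromosome 10, 80249121 to 80256794, plus strand), which carries the last iron-sulphur cluster before ubiquinone, was at 82.6, 60.96 and 74.8 CPM in the wild type libraries and 115, 103 and 92.4 CPM in the Lama4-/- libraries. The groups did not overlap, with a log2 fold change of 0.50 (SE 0.20, adjusted p = 0.367).

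Ndufa9, a supernumerary subunit at the joint with the membrane arm, was at 43.5, 50.3 and 37.3 CPM in the wild type libraries and 67.7, 67.8 and 51.8 CPM in the Lama4-/- libraries. The groups did not overlap, with a log2 fold change of 0.52 (SE 0.23, adjusted p = 0.411). Ndufa5, another supernumerary subunit of the module, was at 44.3, 15.9 and 34.9 CPM in the wild type libraries and 42.3, 28.1 and 27.01 CPM in the Lama4-/- libraries. It stood apart from the other 4, since its log2 fold change was 0.03 (SE 0.41) and became -0.29 without wild type replicate 2.

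**Figure D2:**
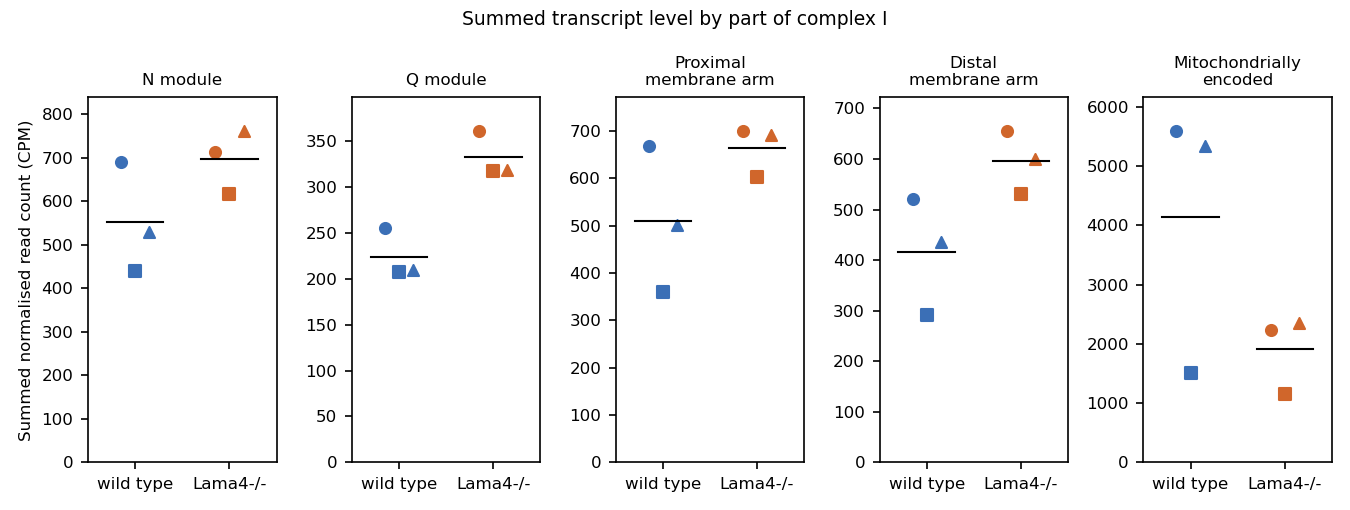
Summed normalised read count (CPM) per library of the nuclear subunits reported here of each block of complex I and of the 6 measured mitochondrially encoded subunits, with the mean of each genotype as a line. The Q module and the distal membrane arm do not overlap between genotypes, the N module and the proximal membrane arm do, and the mitochondrially encoded sum is lower in Lama4-/- and in wild type replicate 2.

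The N module, which oxidises NADH, overlapped between genotypes. Its 10 transcripts summed to 691, 440 and 528 CPM in the wild type libraries and 712, 617 and 762 CPM in the Lama4-/- libraries. 9 of 10 log2 fold changes were above 0, with a median of 0.38, and 0 had an unadjusted p under 0.05. The flavin-binding core subunit Ndufv1 was at 90.2, 74.3 and 76.8 CPM in the wild type libraries and 82.3, 82.7 and 108 CPM in the Lama4-/- libraries, with a log2 fold change of 0.18 (SE 0.20, adjusted p = 0.787). Its partner Ndufv2, a core subunit with an iron-sulphur cluster, was at 108, 82.7 and 89.7 CPM in the wild type libraries and 115, 108 and 126 CPM in the Lama4-/- libraries, with a log2 fold change of 0.31 (SE 0.19, adjusted p = 0.552). The groups of both overlapped, in each case because wild type replicate 1 reached the level of the lower Lama4-/- libraries.

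Ndufs1, the core subunit with most of the module's clusters, was the exception to the common direction. It was at 32.4, 51.03 and 35.9 CPM in the wild type libraries and 15.9, 42.04 and 48.9 CPM in the Lama4-/- libraries. The lowest value was Lama4-/- replicate 1 and the highest wild type replicate 2, the library that was lowest for 30 of the 36 coding subunits. Its log2 fold change of -0.16 (SE 0.43, adjusted p = 0.921 in edgeR) turned to 0.06 without wild type replicate 2 and to 0.21 without Lama4-/- replicate 1. It has the longest principal transcript of all members, 2590 bases, and its exons share 489 bases with the antisense gene Ino80dos.

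Of the supernumerary N module subunits, Ndufv3 was the only 1 of 7 whose groups did not overlap, beside 10.3% of all tested genes higher without overlap. It was at 46.5, 34.1 and 44.1 CPM in the wild type libraries and 68.1, 50.5 and 56.3 CPM in the Lama4-/- libraries, with a log2 fold change of 0.49 (SE 0.24, adjusted p = 0.449). Ndufs4, a late-assembling subunit whose loss causes a mitochondrial encephalopathy, was at 59.4, 29.97 and 31.1 CPM in the wild type libraries and 84.5, 48.7 and 53.5 CPM in the Lama4-/- libraries. Wild type replicate 1 lay above 2 of the 3 Lama4-/- libraries, and the log2 fold change was 0.63 (SE 0.36). Ndufs6, Ndufa2, Ndufa6, Ndufa7 and Ndufa12 overlapped, with log2 fold changes between 0.21 for Ndufa6 and 0.48 for Ndufs6.

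The membrane arm holds only supernumerary subunits on the nuclear side, since its core is encoded in mitochondrial DNA. The 9 transcripts of the proximal part summed to 669, 360 and 502 CPM in the wild type libraries and 701, 603 and 691 CPM in the Lama4-/- libraries. Wild type replicate 1 lay among the Lama4-/- libraries. All 9 log2 fold changes were above 0, with a median of 0.37.

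Ndufa8 (ENSMUSG00000026895, chromosome 2, 36036326 to 36049406, minus strand), a subunit on the intermembrane side, was at 65.8, 49.1 and 63.8 CPM in the wild type libraries and 87.99, 89.5 and 77.98 CPM in the Lama4-/- libraries. The groups did not overlap, with a log2 fold change of 0.51 (SE 0.21, adjusted p = 0.365), and the log2 fold change was 0.39 without wild type replicate 2. Ndufa11, which contacts complex III in supercomplexes, was at 56.8, 27.6 and 50.3 CPM in the wild type libraries and 65.2, 67.5 and 75.7 CPM in the Lama4-/- libraries, with a log2 fold change of 0.63 (SE 0.30, adjusted p = 0.433); it fell to 0.38 without wild type replicate 2. Ndufc1 had groups that did not overlap either, with a log2 fold change of 0.49. Ndufa1, the most abundant per length, was at 167, 71.8 and 121 CPM in the wild type libraries and 151, 131 and 168 CPM in the Lama4-/- libraries, and wild type replicate 1 was level with the highest Lama4-/- library. Ndufa13, also known as Grim19, Ndufa3, Ndufa10, Ndufc2 and Ndufs5 overlapped as well, with log2 fold changes between 0.20 for Ndufa10 and 0.52 for Ndufs5.

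The 11 transcripts of the distal part summed to 520, 292 and 436 CPM in the wild type libraries and 656, 531 and 599 CPM in the Lama4-/- libraries. The sums did not overlap, though wild type replicate 1 came close to Lama4-/- replicate 2. The ratio was 1.43, and 1.25 without wild type replicate 2. All 11 log2 fold changes were above 0, with a median of 0.48.

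Ndufb9 (ENSMUSG00000022354, chromosome 15, 58933756 to 58939488, plus strand), a supernumerary membrane arm subunit, was at 44.3, 32.02 and 48.4 CPM in the wild type libraries and 70.2, 62.3 and 66.1 CPM in the Lama4-/- libraries. The groups did not overlap, with a log2 fold change of 0.67 (SE 0.24, adjusted p = 0.318). Its exons share 201 bases with Gm49356 on the same strand. Of the stretches of read length in its principal transcript, 20.3% also occur in that gene. Ndufb6 was at 45.9, 22.4 and 31.6 CPM in the wild type libraries and 50.5, 49.04 and 64.04 CPM in the Lama4-/- libraries, with a log2 fold change of 0.71 (SE 0.31, adjusted p = 0.402). The exons of Ndufb6 share 257 bases with Smim27 on the other strand, and 31.3% of its stretches of read length also occur in Smim27. Ndufb8, often used as an antibody marker of assembled complex I, was at 81.7, 60.3 and 74.3 CPM in the wild type libraries and 102, 88.00 and 105 CPM in the Lama4-/- libraries, with a log2 fold change of 0.45 (SE 0.20, adjusted p = 0.411).

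Ndufb10 was at 82.4, 44.9 and 58.5 CPM in the wild type libraries and 104, 82.6 and 89.4 CPM in the Lama4-/- libraries. Lama4-/- replicate 2 was just above wild type replicate 1, so the groups did not overlap by a narrow margin, with a log2 fold change of 0.57 (SE 0.26, adjusted p = 0.421). Ndufb5 had a log2 fold change of 0.58 (SE 0.28, adjusted p = 0.448), but 616 of its exon bases are shared with Mrpl47 on the other strand. Ndufb4 was the least abundant subunit, at 7.33, 5.65 and 6.94 CPM in the wild type libraries and 15.3, 8.87 and 11.04 CPM in the Lama4-/- libraries, with a log2 fold change of 0.82 (SE 0.45, adjusted p = 0.511). Ndufb2, Ndufb3, Ndufb7, Ndufb11 and Ndufab1 overlapped between genotypes, with log2 fold changes between 0.24 for Ndufb3 and 0.48 for Ndufab1.

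Across the blocks, the 6 core subunits reported here summed to 398, 349 and 339 CPM in the wild type libraries and 464, 454 and 522 CPM in the Lama4-/- libraries, without overlap and with a ratio of 1.33 (1.30 without wild type replicate 2). The 29 supernumerary coding subunits summed to 1737, 951 and 1337 CPM against 1966, 1615 and 1849 CPM, which overlapped, with a ratio of 1.35 (1.18 without wild type replicate 2). The ratios of core and supernumerary subunits lay close together with all libraries and farther apart without wild type replicate 2. The difference between them, and between the blocks, was not tested.

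Of the 3 processed pseudogenes, Ndufb4c was near 0 in every library and was not tested. Ndufs6b was at 5.59 ± 2.66 against 6.95 ± 0.983 CPM (mean ± SD, n = 3), wild type first, and Ndufa11b at 1.56 ± 0.460 against 2.13 ± 1.12 CPM. Of the stretches of 75 bases, the read length, in a coding subunit's principal transcript, 1.06% of those of Ndufa11 and 2.83% of those of Ndufs6 also occur in its pseudogene. For Ndufb4, 35.2% occur in other genes, most often Ndufb4c, so its count may have lost or shared reads. With exons that overlap another gene in 16 members and stretches of 75 bases shared with annotated transcripts of other genes in 19, 23 members were affected by either. Over the 16 others the ratio of summed levels on the log2 scale was 0.41, beside 0.43 over all members. Ndufb1-ps is set aside by its name, though RefSeq lists that name as a synonym of Ndufb1, a distal membrane arm subunit. Its level was 26.6 ± 10.7 against 26.04 ± 5.84 CPM and its log2 fold change -0.04. Ndufa4 was at 86.7 ± 35.8 against 98.6 ± 15.1 CPM and Ndufa4l2 at 73.1 ± 20.3 against 91.9 ± 30.1 CPM.

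The start sites of the nuclear subunits are shown next, because the letters of 2 factors that bind nuclear respiratory genes recur in them. RefSeq windows (GRCm38.p6) from 250 bases before to 50 bases after the start site matched 32 of the 39 members by symbol; Ndufa2, Ndufa11b, Ndufb4c, Ndufb9, Ndufs1 and Ndufs6b were among those not matched. Both strands were searched. The NRF1 motif (GCGC, any 1 base, then TGCGC), named for a regulator of genes for mitochondrial proteins, was in 7 of 32 members (21.9%), beside 11.2% of 10326 tested genes and 5.19% of all 27025 genes with a window. The 30 bases around 1 match per gene are given 5′ to 3′ on the gene's strand, with the match in capitals; of the 3 matches in Ndufb4, the one farthest from the start site is shown.
Ndufa11, chr17:56717692-56717721, plus strand: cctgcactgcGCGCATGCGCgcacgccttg
Ndufa5, chr6:24527697-24527726, minus strand: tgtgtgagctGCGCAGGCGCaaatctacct
Ndufa6, chr15:82354249-82354278, minus strand: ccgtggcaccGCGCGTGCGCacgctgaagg
Ndufa8, chr2:36049349-36049378, minus strand: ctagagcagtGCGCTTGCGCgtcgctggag
Ndufb4, chr16:37654540-37654569, minus strand: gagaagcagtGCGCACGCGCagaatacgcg
Ndufs5, chr4:123718265-123718294, minus strand: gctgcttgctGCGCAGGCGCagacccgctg
Ndufs6, chr13:73328479-73328508, minus strand: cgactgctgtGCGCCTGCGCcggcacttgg

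The letters AAGATGG, the core of the YY1 motif, were also in 7 of 32 members (21.9%), beside 8.20% of tested genes and 7.28% of all genes. In all 7 they stood as written, on the gene's strand, within the 50 bases after the start site, where 2.81% of tested genes and 1.54% of all genes had them. In 7 of the 7 the ATG inside the match is a start codon annotated by GENCODE, beside 175 of the 290 tested genes (60.3%) with the letters in that place.
Ndufa3, chr7:3617384-3617413, plus strand: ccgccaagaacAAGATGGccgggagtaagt
Ndufa9, chr6:126849097-126849126, minus strand: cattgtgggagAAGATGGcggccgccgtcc
Ndufb8, chr19:44555393-44555422, minus strand: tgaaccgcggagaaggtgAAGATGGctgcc
Ndufc1, chr3:51408915-51408944, minus strand: gcctgcggaacAAGATGGcgccgtccgtag
Ndufs4, chr13:114388045-114388074, minus strand: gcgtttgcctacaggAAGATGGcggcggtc
Ndufs6, chr13:73328433-73328462, minus strand: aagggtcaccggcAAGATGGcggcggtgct
Ndufs7, chr10:80249462-80249491, plus strand: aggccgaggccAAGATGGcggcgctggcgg

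Ndufs6 is in both sets. The subunits with the NRF1 letters had log2 fold changes from 0.03 for Ndufa5 to 0.82 for Ndufb4, and those with the YY1 letters from 0.31 for Ndufa3 to 0.63 for Ndufs4, both inside the range of all subunits. Of the other letters searched, CCGGAAG, bound by ETS factors such as GABP, was in 4 of 32 (12.5%, tested genes 19.5%), CCAAT in 10 (31.25%, 42.7%), the GC box GGGCGG in 15 (46.9%, 68.7%), TATAAA in 4 (12.5%, 9.08%), the cAMP response element TGACGTCA in 3 (9.375%, 3.53%) and the ERR letters AAGGTCA in 3 (9.375%, 3.82%). A match is a description of these letters; binding was not measured.

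**Figure D3:**
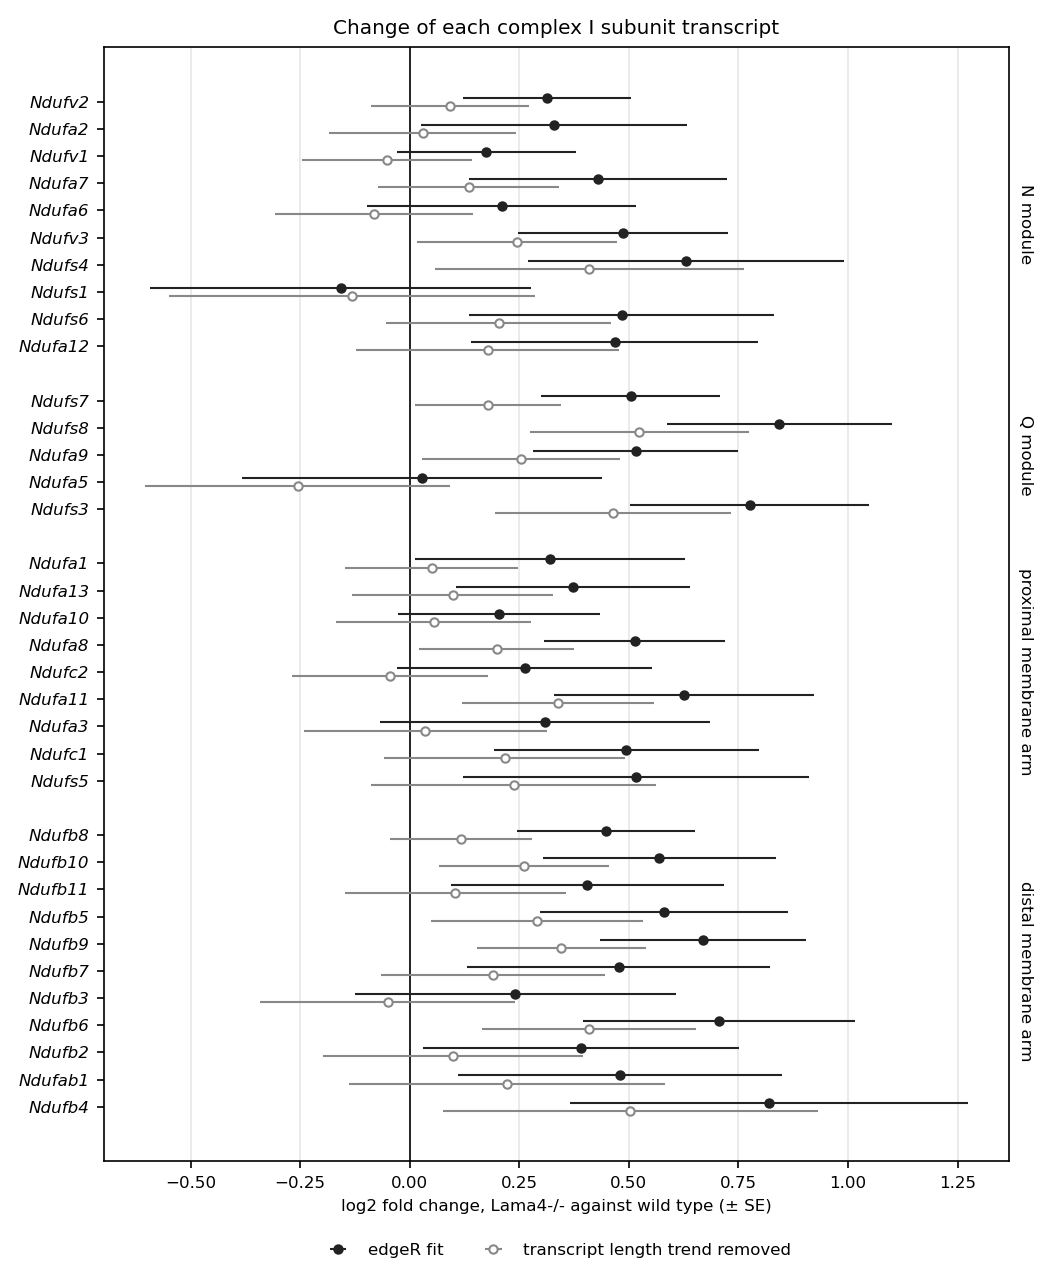
log2 fold change of Lama4-/- against wild type with its standard error for 35 coding subunits, from the edgeR fit (filled) and with the trend on principal transcript length removed (open). 34 of the 35 filled points lie above 0 and 29 of the 35 open points do.

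Transcript length moved with the comparison across the whole transcriptome and has to be read beside these values. Over all tested genes the median log2 fold change was 0.33, 0.34 and 0.27 in the 3 deciles of shortest principal transcripts and -0.92 in the longest decile (rho -0.46 across 14463 genes). Complex I subunits have short transcripts, with a median of 812 bases, and 36 of 38 tested members lay in those 3 deciles. 28 of 38 were above the median of their own decile. With a smooth trend on length removed within each library, the members' median log2 fold change was 0.17 on the length of the longest transcript and 0.18 on that of the principal transcript, beside 0.02 and 0.03 over all genes. The counts above 0 were 31 of 38 (51.4% of all tested genes) and 32 of 38 (52.0%), and 0 members had an unadjusted p under 0.05 and were higher, beside 4.95% of all genes. Ndufs8 kept a log2 fold change of 0.52 and Ndufb4 of 0.50, Ndufs3 of 0.46, while Ndufa5, Ndufa6, Ndufb3, Ndufc2, Ndufs1 and Ndufv1 were at or below -0.04. Within the 36 coding subunits the fold change did not follow length (rho -0.01, r -0.16, a description across genes). Most of them lay in the 3 shortest deciles, where the medians of all genes also differed little, so this relation cannot show the part of length. The part of length in the members' direction was not tested beyond these values.

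**Figure D4:**
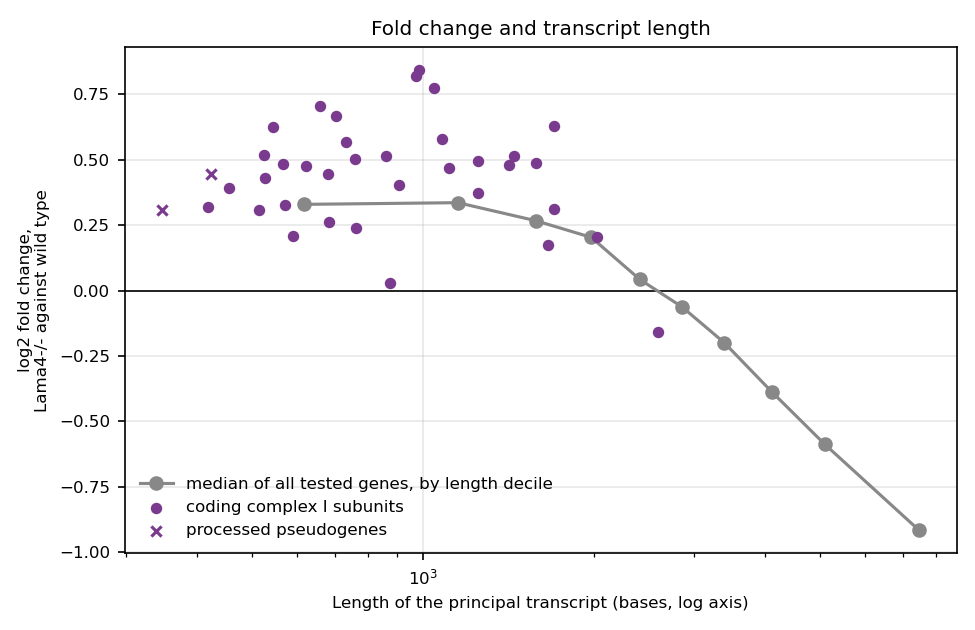
log2 fold change of Lama4-/- against wild type plotted against the length of the principal transcript (log axis), for complex I subunits (points), their processed pseudogenes (crosses) and as the median of all tested genes in each length decile (grey line). Members crowd at the short end, where the median of all genes is also above 0.

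The mitochondrially encoded subunits, which form the proton-pumping core of the membrane arm, had lower mean levels in Lama4-/- cells. The 6 that were measured summed to 5598, 1501 and 5333 CPM in the wild type libraries and 2233, 1151 and 2347 CPM in the Lama4-/- libraries. All 6 had a log2 fold change below 0 (median -1.23), 3 with an unadjusted p under 0.05, where 8.34% of all tested genes were lower at that threshold, and 0 with an adjusted p under 0.05. Wild type replicate 2 lay with the Lama4-/- libraries, so the groups overlapped for each. mt-Nd4 was at 1739, 269 and 1329 CPM in the wild type libraries and 384, 202 and 419 CPM in the Lama4-/- libraries, with a log2 fold change of -1.73 (SE 0.63, adjusted p = 0.329). mt-Nd2 was at 1044, 211 and 897 CPM in the wild type libraries and 275, 147 and 344 CPM in the Lama4-/- libraries and mt-Nd6 at 264, 40.8 and 222 CPM in the wild type libraries and 56.1, 28.1 and 74.5 CPM in the Lama4-/- libraries, with log2 fold changes of -1.49 and -1.73. mt-Nd1, mt-Nd3 and mt-Nd5 had log2 fold changes of -0.65, -0.97 and -0.94. mt-Nd4l was not analysed here. The library with the lowest nuclear subunit levels thus also had low mitochondrial mRNA within the wild type group, while between genotypes the 2 sets had fold changes of opposite sign.

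Assembly factors, which build complex I and are not part of it, also had mostly positive log2 fold changes. Of 16 tested assembly factors, 14 had a log2 fold change above 0 (median 0.38), beside 48.0% of all tested genes. With the trend on the longest transcript removed, 13 of the 16 were above 0 (median 0.31), beside 51.4% of all tested genes. By edgeR 0 of the 16 had an unadjusted p under 0.05 in either direction, beside 4.45% of all genes higher and 8.34% lower. Their sums were 209, 198 and 230 CPM in the wild type libraries and 278, 248 and 312 CPM in the Lama4-/- libraries, without overlap. Ndufaf6 was at 5.24, 3.25 and 5.17 CPM in the wild type libraries and 9.90, 6.24 and 19.2 CPM in the Lama4-/- libraries, with a log2 fold change of 1.37 (SE 0.59, adjusted p = 0.392). Dmac1 had a log2 fold change of 0.72, and the lower ones were Ndufaf4 at -0.40 and Timmdc1 at -0.26. Of 12 iron-sulphur cluster assembly genes, 9 were above 0 (median 0.38), again beside 48.0% of all genes. The 1 with an unadjusted p under 0.05 was Isca2, with a log2 fold change of 0.68, where 4.45% of all genes were higher. Glrx5 was at 0.42, and Hspa9 at -0.18 and Lyrm4 at -0.35 were on the lower side.

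The nuclear subunits of the other respiratory complexes also had mostly positive log2 fold changes, with 0 genes past an adjusted p of 0.05 in any of them by edgeR. Over all tested genes 48.0% were above 0, and 4.45% were higher at an unadjusted p under 0.05. In the 3 deciles of shortest principal transcripts 76.2%, 73.2% and 67.8% of genes were above 0. In complex II, succinate dehydrogenase, 4 of 4 were above 0 (median 0.57, 3 with an unadjusted p under 0.05), with the smallest p for Sdhb at 0.67 and Sdhd at 0.56. In complex III, 9 of 9 were above 0 (median 0.50, 3 with an unadjusted p under 0.05), with the smallest p for cytochrome c1, Cyc1, at 0.64 and Uqcrc1 at 0.70. In complex IV, 12 of 12 were above 0 (median 0.39, 2 with an unadjusted p under 0.05), with the smallest p for Cox4i1 at 0.59 and Cox5a at 0.64. In ATP synthase, 14 of 15 were above 0 (median 0.45, 3 with an unadjusted p under 0.05), with the smallest p for Atp5c1 at 0.74 and Atp5b at 0.51, and with Atp5l at -0.80. The complex I median of 0.47 lay within the range of these 4, and no difference between complexes was tested. Summed levels of complex II were 397 to 425 CPM in wild type and 496 to 578 CPM in Lama4-/- libraries. In the same order they were 632 to 845 and 1028 to 1156 CPM for complex III, and 1855 to 2072 and 2723 to 2838 CPM for ATP synthase. These sums did not overlap, as in the Q module, while those of complex IV did (659 to 1221 and 1107 to 1391 CPM). With the trend on the longest transcript removed, the medians of complexes II, III, IV and ATP synthase were 0.30, 0.19, 0.098 and 0.18. Without wild type replicate 2 they were 0.56, 0.24, 0.11 and 0.25.

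Upstream and neighbouring genes were mixed. Of 13 tricarboxylic acid cycle enzymes, which make the NADH that complex I oxidises, 11 were above 0 (median 0.19), beside 48.0% of all tested genes. The smallest p on the higher side was for Suclg1 at 0.96 and Idh3a at 0.64, and Ogdh at -0.43 and Cs at -0.12 were below. With the trend on the longest transcript removed, 7 of the 13 enzymes were above 0 (median 0.087), beside 51.4% of all tested genes. Among 7 genes of supercomplex assembly and of other routes for NADH, 5 were above 0 (median 0.04), with Higd2a at 0.57 and Mdh1 at 0.24 on the higher and Gpd2 at -0.33 and Got2 at -0.12 on the lower side. Transcripts of 9 tested regulators of mitochondrial biogenesis had a median of -0.01, with 4 above 0. Pprc1, a coactivator of nuclear respiratory genes, was at 29.8, 66.3 and 68.7 CPM in the wild type libraries and 29.9, 22.2 and 26.8 CPM in the Lama4-/- libraries, with a log2 fold change of -1.06 (SE 0.36, adjusted p = 0.308). Yy1, a transcription factor, was at 73.7, 20.7 and 60.3 CPM in the wild type libraries and 28.5, 20.2 and 31.1 CPM in the Lama4-/- libraries, with a log2 fold change of -0.96 that was -0.14 with the length trend removed. Gabpb1 and Esrra were at 0.71 and 0.66. The coactivator Ppargc1a was too low to be tested, at or below 0.685 CPM in every library.

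Most markers of blood cells had higher mean levels in the Lama4-/- libraries too, with 0 of them past an adjusted p of 0.05 by edgeR. Over all tested genes 48.0% had a log2 fold change above 0, and 4.45% were higher at an unadjusted p under 0.05. All 9 neutrophil and monocyte markers had a log2 fold change above 0, 4 with an unadjusted p under 0.05, and their sum was between 37.7 and 128 CPM in wild type and between 113 and 785 CPM in Lama4-/- libraries. S100a9 was at 44.3, 5.99 and 30.7 CPM in the wild type libraries and 260, 169 and 37.3 CPM in the Lama4-/- libraries and S100a8 at 22.7, 5.99 and 18.98 CPM in the wild type libraries and 155, 116 and 27.7 CPM in the Lama4-/- libraries, while Ltf was at 0 in 1 library of each genotype. All 8 erythroid markers had a log2 fold change above 0, 4 with an unadjusted p under 0.05, and their sum was between 257 and 1693 CPM in wild type and between 1379 and 3874 CPM in Lama4-/- libraries, led by Hbb-bs and Hba-a1. Of 6 tested general blood cell markers 5 were above 0 (median 0.65), 2 with an unadjusted p under 0.05, and all 7 on the list summed to 9.27, 7.71 and 26.9 CPM in the wild type libraries and 23.5, 37.6 and 37.8 CPM in the Lama4-/- libraries. Among them Ptprc, which encodes the CD45 of the sort, was at 0 in 1 wild type and 2 Lama4-/- libraries. The 3 tested megakaryocyte and platelet markers went the other way, with 0 above 0 and a median of -1.20. Of these, 1 was lower at an unadjusted p under 0.05, beside 8.34% of all tested genes. Of 10 marrow stroma markers 8 had a log2 fold change below 0, 5 with an unadjusted p under 0.05 (8.34% of all tested genes). Their principal transcripts are long, with a median of 5122.5 bases, and their median log2 fold change was -0.74, or -0.19 with the length trend removed. Of 6 chondrocyte markers 0 were above 0 (median -0.86, or -0.53 with the length trend removed), and 4 were lower at an unadjusted p under 0.05, while 3 of 6 osteoblast markers were above 0. Skeletal muscle markers summed to at most 11.96 CPM, endothelial markers to at most 7.93 CPM and B lineage markers to at most 14.2 CPM in any library. Wild type replicate 1 had the lowest erythroid sum and the highest complex I sum of its group, and Lama4-/- replicate 2 had the lowest of both in its group. The part of these cells in the complex I values was not tested.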

How the data were processed

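RNA was amplified with a SMART-Seq v4 kit and read as 75-base single-end sequences from Nextera XT libraries, per the labels' protocols; they name more than one Illumina instrument and do not say which read which library. Such libraries do not mark strand. Tools in the submitters' processing notes are STAR 2.6.1d, FastQC 0.11.8, MultiQC 1.7, Subread with featureCounts, and DESeq2, on GRCm38 (mm10). The authors deposited 1 table in which the headings of the raw and normalized blocks are exchanged. The whole-number block was used as the deposited counts. The other block, those counts times a constant per library, is a deposited signal and was not tested. The authors' own DESeq2 comparison fills the last columns, per the file headers, with a mean signal, a log2 fold change under a beta prior with its log2 error, a Wald score, a p-value and an adjusted p-value.

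In R 4.3.3, all genes were fitted together with edgeR 4.0.16 (filterByExpr by genotype, TMM, robust quasi-likelihood F test, Benjamini-Hochberg over 14465 genes, threshold 0.05), 3 libraries against 3. No 2 libraries of a genotype were near-identical (chi-square per gene at least 47.2). Positions, overlaps and transcript lengths came from the GENCODE annotation of GRCm38, which holds 99.9% of the table's genes; the principal transcript is the shortest annotated APPRIS principal isoform, of the best support level where there is one. Shared stretches were searched in annotated transcripts. The length trend was removed with a lowess curve (span 0.3) per library as an offset. The fits were tested on simulated counts in which genes changed by more than any member did here. That run therefore does not show how well changes of the members' size are found. Alternatives were other scalings, filters, DESeq2 1.42.0, voom of limma 3.58.1, a replicate block and each library left out. The members, lists and alternatives were chosen with earlier results of these data known; the length of the principal transcript, and leaving out the pseudogenes, were added after seeing the data. The text names all members (full statistics for the core subunits and those of smallest p), the subunits set aside, the 2 genes of smallest p in each direction of every other pathway list, all mitochondrially encoded subunits, Lama4, sort markers and abundant markers of other cells. 1 member is counted in the totals over all members and is not reported here by itself.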

Additional observations from a re-analysis of the deposited data

How the results depend on the processing

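0 complex I members passed an adjusted p of 0.05 under any alternative run, among them DESeq2, voom, the replicate block and the length trends. In the main edgeR fit 0 members passed an adjusted p of 0.10 either, while in DESeq2 Ndufs8 had an adjusted p of 0.0649. The number with a log2 fold change above 0 stayed between 30 and 38. The members' median of 0.47 was 0.17 with the trend on the longest transcript or on the longest coding transcript removed, ran from 0.27 to 0.65 when 1 library was left out, and from 0.39 to 0.57 under the other scalings, filters and tools. The log2 ratio of summed levels, 0.43, ran from 0.28 without wild type replicate 2 to 0.63 without wild type replicate 1. Over all genes, the 1 call (Lama4) became 0 with upper-quartile scaling, voom, the replicate block or any length trend removed, 12 without a filter and 741 with DESeq2, and lay between 0 and 1 when a library was left out. Same-numbered libraries deviated together only weakly (r of 0.04, 0.13 and 0.05 across genes, each still the highest for its number), so the numbers were not taken as pairs; with the replicate block the members' median was 0.48 and 37 of 38 were above 0.

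9 single members changed sign under some alternative; the cause was not tested. With the length trend removed, on the longest, longest coding and principal transcript in that order, the log2 fold changes were Ndufa5 at -0.28, -0.29 and -0.26, Ndufa6 at -0.089, -0.11 and -0.082, Ndufb3 at -0.074, -0.077 and -0.051, Ndufc2 at -0.065, -0.080 and -0.045 and Ndufv1 at -0.096, -0.11 and -0.052. Ndufa10 was at -0.012 and -0.018 on the first pair and Ndufa2 at -0.0058 on the longest coding transcript. Ndufa5 was at -0.036 with voom. When 1 library was left out, values ran from -0.29 to 0.36 for Ndufa5, -0.025 to 0.53 for Ndufa6, -0.037 to 0.59 for Ndufb3, -0.45 to 0.21 for Ndufs1 and -0.012 to 0.67 for Ndufs6b. Depth bears most on the subunits with few counts in the smallest library, such as Ndufb4, with 33 counts in wild type replicate 2.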
